A study of Homo sapiens with 8 samples.

Results

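Bone lineage genes were examined for peaks of Sp1 and CTCF in the osteosarcoma line U-2 OS by chromatin immunoprecipitation followed by sequencing (ChIP-seq). The 10 genes were RUNX2, SP7, DLX5, COL1A1, COL1A2, SPARC, SPP1, IBSP, BGLAP and ALPL, out of 20033 protein-coding genes. They were listed by name as genes of the osteoblast lineage, by a rule that uses no measured value. The choice was nonetheless made with earlier results of these data known. A peak was assigned to a gene when its summit, the base of highest signal, lay in the gene or within 5 kb of it. The Sp1 and IgG libraries carried the genotype V5-Halo-SP1, a tag knocked into the endogenous SP1 gene, although their titles speak of a parental line. The CTCF libraries came from clone C32, a single clone with the genotype FLAG-Halo-CTCF, whereas the series description names wild-type cells. All libraries were fixed with 1% formaldehyde for 6 min. Sp1 was pulled down with 2 rabbit antibodies, 1 library each, and CTCF with 1 antibody in 2 replicates. The Sp1 line also gave 1 normal rabbit IgG control and 1 input library. Clone C32 gave 2 input libraries and no IgG. Sp1 and CTCF came from different lines, so a difference between the targets and a difference between the lines cannot be told apart. RNA was not measured in this series, so whether the cells express these genes was not examined.

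Osteoblasts form bone by secreting a matrix of type I collagen and then loading it with mineral. RUNX2 commits mesenchymal cells to this lineage, SP7 (osterix) acts after it, and DLX5 is a homeodomain factor that acts on both. COL1A1 and COL1A2 encode the chains of type I collagen. SPARC (osteonectin), SPP1 (osteopontin), IBSP (bone sialoprotein) and BGLAP (osteocalcin) are noncollagenous matrix proteins, and ALPL is the phosphatase that lets mineral form. SP7 belongs to the same zinc finger family as Sp1, which binds GC-rich promoters through the GC box, GGGCGG. CTCF is a zinc finger protein that binds a long directional element and anchors chromatin loops.

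CTCF peaks were called at most of these genes, as at most protein-coding genes, and Sp1 peaks at few. The CTCF lists were also longer, with 42765 and 36082 peaks against 8706 and 5973 for the Sp1 antibodies. Replicate 1 of CTCF had 21 peaks at 8 of the 10 genes and replicate 2 had 19 peaks at the same 8, compared with 68.1% and 61.6% of all protein-coding genes. Each of the 19 replicate 2 peaks overlapped a replicate 1 peak, and such a pair is called a shared peak below. Shared CTCF peaks were thus found at 8 of 10 genes, against 60.9% of protein-coding genes. Sp1 antibody 1 had 2 peaks, at SP7 and COL1A1, where 44.3% of protein-coding genes had one. Antibody 2 also had 2 peaks, at COL1A1 and RUNX2, against 31.0%. COL1A1 alone had a peak that both antibodies shared, 1 of 10 genes, compared with 25.7% of protein-coding genes. BGLAP and IBSP had no peak in any of these lists. IgG, made in the Sp1 line, had 0 peaks at the 10 genes, but its whole list held only 106 peaks. Over all protein-coding windows it gave 0.00101 peaks per 100 kb, so its 0 says little about these genes.

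**Figure D1:**
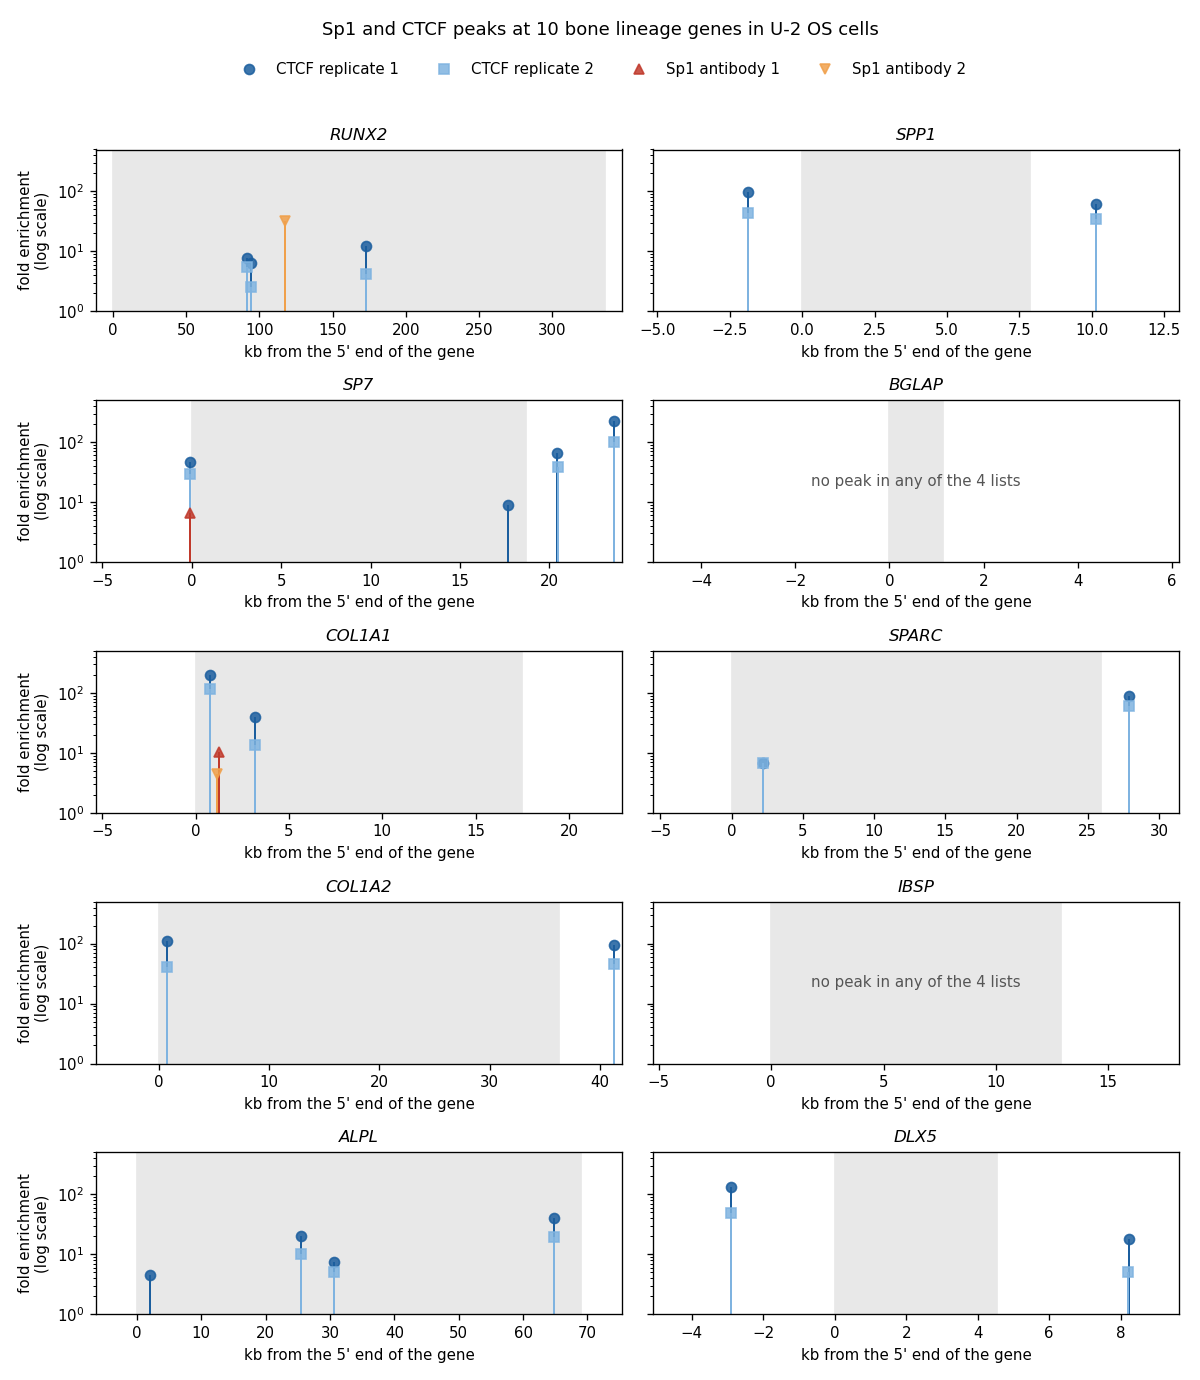
Position of each peak summit in kb from the 5′ end of the gene, in the direction of transcription, against fold enrichment over the control on a log scale, for the 10 genes. Grey marks the gene body and each panel spans the gene and 5 kb on either side. CTCF symbols appear at 8 genes, whereas Sp1 symbols appear only at RUNX2, SP7 and COL1A1.

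The sequences under the CTCF summits at the 5′ ends of SP7, COL1A1 and COL1A2 are shown first, since these 3 genes had CTCF closest to their starts, followed by the strongest site near SPARC and the single shared site with an exact CTCF core, at ALPL. Each is read 5′ to 3′ on the strand of the core, from hg38, with the core in capitals. The first 4 differ from the core at 1 position.
SP7 upstream, chr12:53345376-53345415, minus strand: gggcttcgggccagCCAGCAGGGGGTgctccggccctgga
COL1A1 intron 1, chr17:50200865-50200904, plus strand: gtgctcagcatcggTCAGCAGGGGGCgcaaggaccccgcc
COL1A2 intron 1, chr7:94395612-94395651, minus strand: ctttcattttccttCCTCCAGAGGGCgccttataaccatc
SPARC downstream, chr5:151659095-151659134, plus strand: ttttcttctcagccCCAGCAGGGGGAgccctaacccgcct
ALPL intron 9, chr1:21574221-21574260, minus strand: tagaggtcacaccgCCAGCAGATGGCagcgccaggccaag

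Type I collagen genes carried strong CTCF peaks just inside their starts. COL1A1 (ENSG00000108821.14, chromosome 17, 50184101 to 50201632, minus strand) had a CTCF peak at 50200234 to 50201423 in intron 1, with its summit 773 bp from the 5′ end. Its fold enrichment was 201 in replicate 1 and 114 in replicate 2. These values placed it at the 98.5 and 99.0 percentiles of fold enrichment in their lists. A weaker CTCF peak in coding exon 6 had 39.2 and 13.7.

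COL1A2 (ENSG00000164692.19, chromosome 7, 94394895 to 94431227, plus strand) had a CTCF peak at 94395258 to 94396050, also in intron 1 and 763 bp from the 5′ end. Fold enrichment there was 111 in replicate 1 and 41.1 in replicate 2. The collagen genes thus shared a CTCF summit at nearly the same distance from the start, and in both the core pointed against transcription. Another COL1A2 peak lay 4988 bp past the end of the gene in replicate 1 and 4998 bp past it in replicate 2, with 95.3 and 46.1. It sits at the very edge of the 5 kb limit, and a smaller limit would drop it.

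Sp1 peaks were called at COL1A1, and no Sp1 summit lay within 5 kb of COL1A2. Antibody 1 had a COL1A1 peak at 50199965 to 50201018 with a fold enrichment of 10.4 and a −log10 q of 32. Antibody 2 had one at 50200017 to 50201250 with 4.51 and 5.78. Both summits lay in intron 1, at 1259 and 1150 bp from the 5′ end and 109 bp apart. The nearest CTCF summit of replicate 1 was 486 bp from the antibody 1 summit and 377 bp from that of antibody 2. This CTCF summit, at 50200859, lay inside both Sp1 peaks, so the peaks of the targets overlapped here. In rank, the site stood at the 67.5 percentile for antibody 1 and at 18.3 for antibody 2. Under a stricter rule, with summits within 100 bp of each other, no gene of the 10 had a shared Sp1 peak. At COL1A2 the nearest antibody 1 summit was 264 kb away and the nearest antibody 2 summit 303 kb away.

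The COL1A1 window at the antibody 1 summit is shown because it holds the only GC boxes within 50 bp of any Sp1 summit at these genes. Capitals mark the boxes, 1 on each strand, on the strand of the gene.
COL1A1 intron 1, chr17:50200323-50200423, minus strand: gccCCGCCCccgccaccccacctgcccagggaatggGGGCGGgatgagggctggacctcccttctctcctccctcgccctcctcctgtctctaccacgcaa
Over the peaks on chromosomes 1 to 22, X and Y, 8613 for antibody 1 and 5894 for antibody 2, on which all motif shares were counted, 53.1% of antibody 1 peaks held a GC box in the same window. This was so for 37.0% of antibody 2 peaks and for 1 of the 4 Sp1 peaks here.

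Among the transcription factors, SP7 had both targets at its promoter. SP7 (ENSG00000170374.6, chromosome 12, 53326575 to 53345315, minus strand) had an antibody 1 peak at 53345156 to 53345581, 104 bp upstream of the gene, with a fold enrichment of 6.70 and a −log10 q of 9.60. A CTCF peak at 53345008 to 53346011 had its summit 98 bp upstream, with 45.8 in replicate 1 and 29.2 in replicate 2. The Sp1 summit was therefore 6 bp from the CTCF summit of replicate 1 and 13 bp from that of replicate 2. Over the whole list, 1.32% of antibody 1 peaks had a CTCF replicate 1 summit within 10 bp and 8.71% within 100 bp. The antibody 1 peak ranked at the 39.5 percentile of its list, and antibody 2 had no peak at the SP7 promoter. About as many antibody 1 peaks lacked an antibody 2 overlap as had one, 50.8% of the list.

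The SP7 window at the antibody 1 summit shows a CTCF core with 1 mismatch, in capitals, and no GC box.
SP7 upstream, chr12:53345369-53345469, minus strand: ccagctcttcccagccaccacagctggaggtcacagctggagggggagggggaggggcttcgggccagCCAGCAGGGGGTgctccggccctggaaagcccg
The CTCF core with at most 1 mismatch occurred in 2.6% of antibody 1 peaks.

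The other shared peaks in the SP7 window lay at its neighbour. AAAS, a nuclear pore gene, lies next to the 3′ end of SP7. The CTCF site with the highest replicate 1 value of the 10 genes, 229, had 101 in replicate 2, below the 114 of COL1A1 intron 1. It lay 4885 bp past the end of SP7 in replicate 1, inside AAAS and 74 bp from an AAAS start site. A further CTCF peak, 67.0 and 39.0, was 7 bp from an AAAS start site in replicate 1. Just outside the limit, at 5017 bp past the end of SP7, lay an antibody 2 summit with a fold enrichment of 7.44, and at 5195 bp an antibody 1 summit with 4.54. These Sp1 peaks overlap each other within AAAS. Replicate 1 alone had a weak peak of 8.80 in the 3′ exon of SP7, with an exact CTCF core.

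RUNX2 was the only gene at which Sp1 antibody 2 stood alone. RUNX2 (ENSG00000124813.23, chromosome 6, 45328157 to 45664349, plus strand) is transcribed from a distal promoter at its 5′ end and from a proximal promoter within the gene, and it overlaps SUPT3H and RUNX2-AS1. The antibody 2 peak at 45445700 to 45446389 had a fold enrichment of 32 and a −log10 q of 137, at the 94.2 percentile of its list. This was the highest fold enrichment of the 4 Sp1 peaks at the 10 genes. Its summit was in intron 5, 23424 bp past the nearest RUNX2 start site, and the nearest antibody 1 summit was 164 kb away. Of all antibody 2 peaks, 28.2% lacked an antibody 1 overlap.

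The window at this summit is shown because it held no GC box but a word resembling sites of C/EBP factors, TTGTGCAA, in capitals.
RUNX2 intron 5, chr6:45445951-45446051, plus strand: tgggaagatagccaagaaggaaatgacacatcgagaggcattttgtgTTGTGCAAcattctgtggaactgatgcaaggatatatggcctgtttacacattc
This word reads TTGCACAA on the other strand. That form or TTGCGCAA occurred on either strand in 5.38% of antibody 2 peaks and 0.209% of antibody 1 peaks. The words searched here were chosen with their frequency in these lists known. The ETS-like word CCGGAA and the AP-1 word TGANTCA were also sought on both strands and had no match in this window. They occurred in 17.9% and 2.77% of antibody 2 peaks.

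CTCF at RUNX2 was weak. A peak at 45422112 to 45422313, 108 bp inside an annotated start site at the proximal promoter, had 6.46 in replicate 1 and 2.50 in replicate 2. A peak in the same intron had 7.69 and 5.42, and one in intron 6 had 12.5 and 4.23. None of these had a CTCF core within 1 mismatch. They ranked between the 15.9 and 33 percentiles in replicate 1 and between the 1.90 and 13.8 percentiles in replicate 2. The distal promoter had no peak of either target within 5 kb, and its nearest shared CTCF summit was 91.5 kb away.

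DLX5 (ENSG00000105880.7, chromosome 7, 97020396 to 97024950, minus strand) had a CTCF peak on either side and no Sp1 peak. The upstream peak at 97027424 to 97028176 had its replicate 1 summit 2896 bp from the gene, with 133 and 48.1. The downstream peak, 3692 bp past the end, had 18.2 and 5.15. Neither held a CTCF core within 1 mismatch in the 50 bp on each side of the replicate 1 summit. The gap between the shared CTCF summits on either side of the DLX5 start was 11.1 kb, the shortest of the 10 genes. The median over protein-coding genes was 83.1 kb.

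The noncollagenous matrix genes differed among themselves. SPP1 (ENSG00000118785.15, chromosome 4, 87975667 to 87983532, plus strand) lay between strong CTCF peaks. One had its summit 1873 bp upstream of the gene, with 99.0 in replicate 1 and 43.8 in replicate 2, and the other 2275 bp downstream, with 61.6 and 35.1. They were 12 kb apart.

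SPARC (ENSG00000113140.11, chromosome 5, 151661096 to 151686975, minus strand) had a CTCF peak 1980 bp past its end with 88.7 and 59.4. A weak peak in its intron 1 had 6.81 in replicate 1 and 6.68 in replicate 2, the closest pair of values among the shared sites. No Sp1 summit lay within 5 kb of SPP1 or SPARC.

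IBSP and BGLAP had no peak of either target in their windows, where 60.9% of protein-coding genes had a shared CTCF peak. Over protein-coding genes, the nearest shared summit was a median of 14 kb from the 5′ end for CTCF and 97.3 kb for Sp1. IBSP (ENSG00000029559.7, chromosome 4, 87799554 to 87812435, plus strand) had its nearest shared CTCF summit 38.9 kb from the start and its nearest shared Sp1 summit 485 kb away. The CTCF summits on either side of its start were 159 kb apart. BGLAP (ENSG00000242252.2, chromosome 1, 156242184 to 156243317, plus strand) is the shortest of the genes, lies among PMF1 and PAQR6, and had its nearest shared CTCF summit at 16.6 kb and its nearest shared Sp1 summit at 40.7 kb. Its window of 11.1 kb was also the shortest, and a short window has less room for a peak.

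ALPL (ENSG00000162551.14, chromosome 1, 21509397 to 21578410, plus strand) had CTCF peaks inside the gene and no Sp1 peak within 5 kb. Shared CTCF peaks in intron 1 had 20.1 and 9.94 at the first and 7.49 and 5.13 at the second. The peak in intron 9 was stronger, with 40.3 in replicate 1 and 19.5 in replicate 2. A replicate 1 peak of 4.54, 2007 bp from the 5′ end, had no partner in replicate 2.

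The ALPL promoter is shown because it held GC boxes without an Sp1 peak. The sequence is that of RefSeq on GRCh38.p14, ended 1 base before the annotated start of the gene, with the 4 GC boxes in capitals.
ALPL promoter, chr1:21509173-21509396, plus strand: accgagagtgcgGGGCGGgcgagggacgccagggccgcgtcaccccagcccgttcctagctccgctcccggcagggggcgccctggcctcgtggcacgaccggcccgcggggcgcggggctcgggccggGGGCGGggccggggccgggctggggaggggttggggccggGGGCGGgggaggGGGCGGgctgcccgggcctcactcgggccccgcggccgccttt
In the RefSeq table of 35116 promoters, each of 250 bases before and 50 after a start, 9 promoters of 6 of the genes were found. SP7, DLX5, COL1A1 and COL1A2 had no entry. A GC box on either strand was present in 3 of the 9 promoters, namely this one with 4, BGLAP with 2 and the proximal RUNX2 promoter with 1, and in 45.0% of all promoters. None of the 9 overlapped a peak of either Sp1 antibody. Of all promoters with at least 4 GC boxes, 9.06% of the table, 40.7% overlapped an antibody 1 peak and 18.9% an antibody 2 peak. Of promoters without a GC box, 8.92% and 6.43% did. Each antibody thus had no peak at more than 50% of the promoters with that many GC boxes, the one at ALPL among them.

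The position of CTCF relative to gene starts was compared next. Within 1 kb of the 5′ end, 3 of 10 genes (SP7, COL1A1 and COL1A2) had a shared CTCF peak and 0 had a shared Sp1 peak, against 15.4% and 17.9% of protein-coding genes. Counting every annotated start site, including those of short transcripts inside a gene, 6 of 10 had shared CTCF and 1 had shared Sp1, against 24.2% and 20.9%. A gene with more start sites has more room for a hit. These genes had up to 13, and the number over all genes was not compared. ALPL counted through a summit 64861 bp from its 5′ end. RUNX2 counted through a peak with 2.50 and a −log10 q of 1.83 in replicate 2. The nearest shared CTCF summit was a median of 2.55 kb from the 5′ end over the 10 genes and 14 kb over protein-coding genes. It was nearer than that overall median at 6 of the 10. For shared Sp1 the medians were 183 and 97.3 kb, and 5 of 10 genes were nearer than the overall median. Windows of the 10 genes held 3.02 shared CTCF peaks per 100 kb compared with 1.55 over all protein-coding windows. Sp1 gave 0.159 and 0.367 shared peaks per 100 kb. The median window was 28.1 kb for the 10 genes and 37.5 kb for protein-coding genes. The fixed 5 kb on either side weighs more in a short window. RUNX2 makes up 346 of the 630 kb of windows, with 3 of the 19 shared CTCF peaks. Some of the 19 lay outside the genes, among them those at AAAS start sites near SP7. With summits inside the gene only, 5 of 10 genes had a shared CTCF peak, against 44.8% of protein-coding genes.

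**Figure D2:**
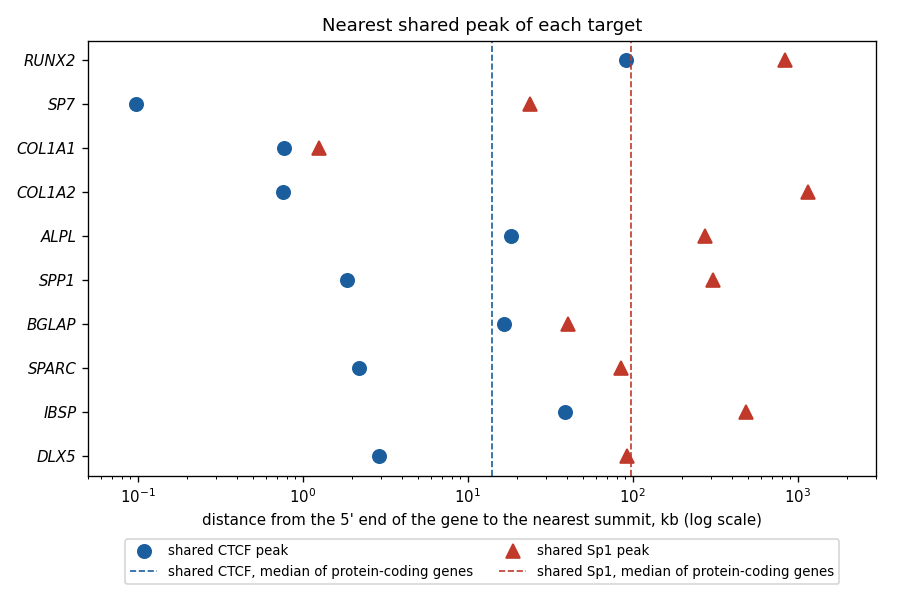
Distance in kb, on a log scale, from the 5′ end of each gene to the nearest shared CTCF summit (circles) and shared Sp1 summit (triangles). Dashed lines are the medians over protein-coding genes, 14 kb for CTCF and 97.3 kb for Sp1. CTCF is nearer than Sp1 at each of the 10 genes. The shared CTCF list is far longer, with 34125 peaks against 4281 for Sp1. The share of all genes with CTCF nearer was not counted.

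The CTCF replicates were compared site by site, and nothing in the labels says whether they came from separate cultures. Replicate 2 had the lower fold enrichment at each of the 19 shared sites, with log2 ratios to replicate 1 between −1.82 at the downstream DLX5 site and −0.03 in SPARC intron 1. The median was −1.05. Over all 34125 shared CTCF peaks the median was −0.89 with an SD of 0.46 between peaks, so the lower values of replicate 2 were found across the list as well. Median fold enrichment at the 19 sites was 45.8 and 29.2, compared with 41.6 and 21.7 over all shared CTCF peaks. Of the 19, 7 were in the strongest 25% of the replicate 1 list and 4 in the weakest 25%. Summits of the replicates were a median of 9 bp and at most 48 bp apart.

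**Figure D3:**
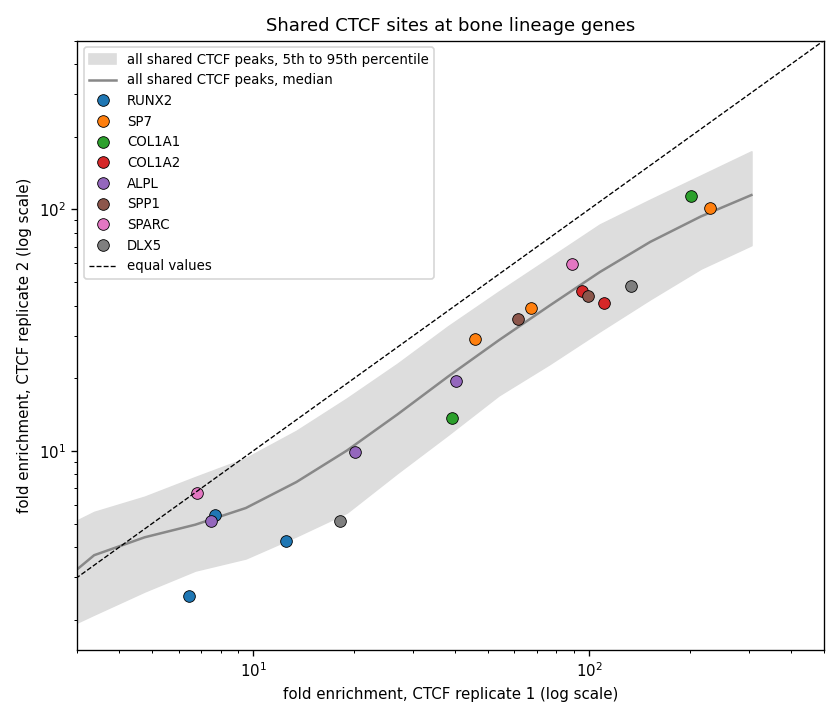
Fold enrichment of the 19 shared CTCF sites in replicate 1 and replicate 2, both on log scales, coloured by gene. The grey band covers the 5th to 95th percentile of all shared CTCF peaks, the grey line is their median and the dashed line marks equal values. All 19 points lie below the dashed line, and SP7 and COL1A1 hold the highest.

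A CTCF core with at most 1 mismatch within 50 bp of the replicate 1 summit was found at 11 of the 19 shared sites, against 57.0% of all shared CTCF peaks. Of these cores, 4 lay on the strand of the gene and 7 on the other. An exact core was found at 1 site, in ALPL, against 18.7% of all shared CTCF peaks.

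Other genes of bone formation were examined from lists of osteoblast transcription factors, osteogenic signalling, and bone matrix and mineralization, with a list of cartilage, fat and muscle genes for comparison. Shared CTCF peaks were found at 11 of 15, 17 of 23, 17 of 26 and 11 of 18 genes of these lists, in that order, which is 73.3%, 73.9%, 65.4% and 61.1%. Shared Sp1 peaks were found at 1, 2, 0 and 3 genes. All 4 Sp1 shares lay below the 25.7% of protein-coding genes. The lists differ in gene length, with median windows of 75.6, 65.9, 29.3 and 25.4 kb in the same order, against 37.5 kb for protein-coding genes, and no test was made of any list. Per 100 kb of window, they held 0.791, 1.22, 1.96 and 0.82 shared CTCF peaks. Against 1.55 over all protein-coding windows, the pooled density was higher in the matrix list and lower in the other lists. Long genes weigh most in it. RUNX1, with a window of 1230 kb, held 5 of the 20 peaks of the transcription factor list. SOX5 and SOX6, with 1040 and 783 kb, held 2 and 3 of the 20 peaks of the last list. Density without these genes was not computed. The share of genes with a peak was above the background of 60.9% in each list, but was only 61.1% in the last.

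Values below are ordered by CTCF replicate 1 and Sp1 antibody 1. In the transcription factor list, the highest CTCF values were at DLX3 (179 and 69.5 in replicates 1 and 2), TCF7 (94.6 and 30.3) and RUNX1 (83.9 and 23.7). Its single shared Sp1 peak was at ATF4, a stress-response factor that also acts in osteoblasts, with 20.1 for antibody 1 and 12 for antibody 2. In the signalling list, CTCF was highest at the Wnt coreceptor LRP5 (216 and 71.8), the Wnt inhibitor SOST (187 and 88.0) and SMAD6 (128 and 46.7). Sp1 was shared at LRP6, the other Wnt coreceptor, with 52.6 and 18.3 at 90 bp from the 5′ end, and at the BMP antagonist NOG with 4.59 and 3.74.

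In the matrix list, CTCF was highest at PPIB (295 and 96.4), a prolyl isomerase that helps collagen fold, at ANKH (178 and 73.1), which governs pyrophosphate outside the cell, and at the proteoglycan gene BGN (167 and 103). None of its 26 genes had a shared Sp1 peak. DMP1, DSPP and MEPE, acidic phosphoprotein genes that cluster with IBSP and SPP1, had 0, 0 and 3 shared CTCF peaks. In the list of other lineages, CTCF was highest at SOX6 (164 and 45.8), MYH3 (109 and 61.3) and SOX9 (101 and 64.2), and Sp1 was shared at COMP (8.45 and 5.20), SOX9 (5.56 and 3.85) and SOX6 (5.48 and 7.25).

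**Figure D4:**
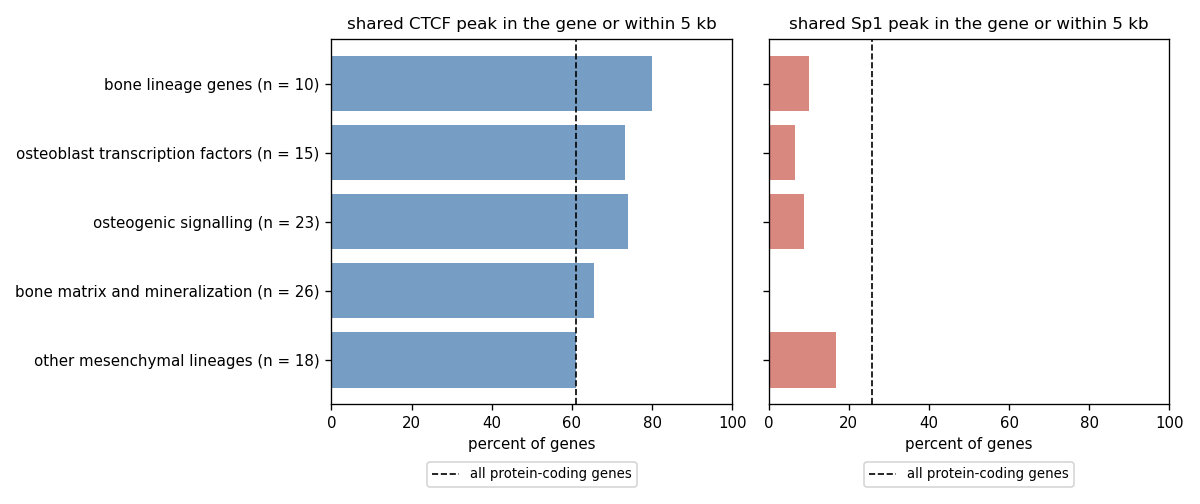
Percent of genes in each list with a shared CTCF peak (left) or shared Sp1 peak (right) in the gene or within 5 kb, with the number of genes in brackets. Dashed lines are the values over all protein-coding genes, 60.9% and 25.7%. Bars for CTCF reach or pass the line in all 5 lists, while those for Sp1 stay below it. Gene length differs between the lists. Shared CTCF peaks per 100 kb were below the protein-coding value in 3 of them, a pooled value in which long genes weigh most.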

How the data were processed

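ChIP-seq peak lists of U-2 OS cells were used for 2 Sp1 antibodies, 2 CTCF replicates and IgG. Input libraries have no list here. The submitters' processing notes name the hg38 build, Bowtie2 2.4.5 for alignment, cutadapt 2.6 for trimming, SAMtools 1.15.1, and MACS2 2.2.7.1, with which the authors called peaks in each library. The methods of the study name other releases of Bowtie2 and SAMtools. The deposited fold enrichment is a linear ratio over a control, made by the authors' peak caller. The deposited −log10 q-value ends at 1.43 in the IgG list and near 1.30 in each Sp1 and CTCF list. The methods describe peak calls at a liberal p-value limit, with no local background and with merged control replicates as control. That limit does not account for lists that end at this q-value, so whether the described calls are the deposited ones is not known. Lists carry no read depth, so a missing peak is no measure of absent binding.

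Genes came from GENCODE 44 on chromosomes 1 to 22, X and Y, with introns numbered in the canonical transcript. The windows of 5 kb, start sites within 1 kb, overlap of at least 1 bp, and motif search within 50 bp of the summit on both strands were computed in Python 3.11.15 with pysam 0.24.0, and the code was tested on simulated peaks. The percentile of a peak is its rank by fold enrichment in its own list. No p-value is given, since each Sp1 antibody has 1 library and CTCF has 2. All 10 genes are named, and in each other list the 3 genes with the highest CTCF and the 3 with the highest Sp1 fold enrichment at a shared peak, with replicate 1 and antibody 1 setting the order. DMP1, DSPP and MEPE were named after their values were seen. The genes and lists were chosen with earlier results of these data known. Alternatives changed the window, the q-value limit, the assignment of peaks and the definition of a shared peak.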

Additional observations from a re-analysis of the deposited data

How the results depend on the processing

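The 8 genes with a shared CTCF peak stayed 8 without replicate 1 or without replicate 2, and were 5 when summits had to lie inside the gene, as were the 8 of replicate 2 (5). That rule also took antibody 1 to 1 gene and 1 peak, and the peaks of the CTCF replicates to 12 and 10. A window of 10 kb gave 4 genes and 5 peaks for antibody 2, 4 peaks for antibody 1 and 2 genes with a shared Sp1 peak. Antibody 2 was within 1 kb of a start site at 1 gene. Genes with a shared Sp1 peak numbered 2 by overlap of the peak interval with the window and 0 with summits within 100 bp. Shared Sp1 was found at 11.4% of protein-coding genes inside the gene only, 28.6% within 10 kb, 24.6% with a −log10 q of at least 3 and 12.4% of all annotated genes. For shared CTCF the shares were 44.8%, 69.0% and 36.6% for the first, second and last of these. A core with at most 1 mismatch was found in 23 of the CTCF peaks of both replicates, which include the 3 with an exact core, and 2 Sp1 peaks had a GC box within 100 bp. These are the 22 values that moved by more than 1.5 times for a count, or beyond the 95% Wilson interval for a share. The other 35 stayed within that tolerance but not all were equal. Genes with a peak of CTCF replicate 1 numbered 6 inside the gene only and 6 within 1 kb of a start site, where replicate 2 and shared CTCF also had 6. Antibody 2 had 3 genes by interval overlap. CTCF peaks numbered 25 and 22 within 10 kb, and 18 in replicate 2 with a −log10 q of at least 3. No paired analysis was possible because replicate numbers are common to CTCF and its inputs alone, and no peaks of the inputs were used. With so few peaks, each Sp1 count rests on single sites, and the lists carry no read depth.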
